A study of Mus musculus with 4 samples.

Results

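Interferon-stimulated genes were followed in sorted mammary cells as a list of 38 genes chosen by symbol, all of which were among the 24442 genes of the deposited count table. Lgr6-positive cells were compared with Lgr6-negative cells, with 2 libraries each and 4 in all. Both came from mammary glands of 5-week-old female Lgr6-eGFP-CreErt2 mice, whose Lgr6 locus carries a green fluorescent protein with a tamoxifen-inducible Cre recombinase. The labels record no treatment of the animals. Cells were sorted after removal of lineage-positive cells, but neither the lineage markers nor the gate for Lgr6-negative cells is stated. Whether replicates came from separate animals is not in the labels either, so p-values reflect spread among libraries that may be technical.

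Interferons are secreted alarm signals of virus infection. Type I interferons bind the receptor pair Ifnar1 and Ifnar2 and activate a complex that holds Stat2 and Irf9 and binds the interferon-stimulated response element (ISRE) in target promoters. Interferon gamma binds Ifngr1 and Ifngr2, and its signal reaches promoters at the gamma-activated site (GAS). The induced genes encode RNA sensors, RNA-degrading and membrane-protecting proteins and GTPases, and leukocytes and epithelia both express some of them without infection.

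Total counts were 6819127 and 6995568 in Lgr6-positive and 6920996 and 7167465 in Lgr6-negative libraries. Lgr6 itself had 172 and 655 counts in Lgr6-positive libraries, against 3 and 10 counts in Lgr6-negative libraries, with an adjusted p of 0.0510 in edgeR's quasi-likelihood test. The ribosomal precursor Rn45s took 17.2% and 14.5% of the counts in Lgr6-positive and 18.7% and 30.8% in Lgr6-negative libraries. Although the sort was from lineage-negative cells, the Lgr6-negative libraries held leukocyte markers at high level. The 7 pan-leukocyte markers summed to 465 and 389 CPM (counts scaled to library size with TMM normalization) in Lgr6-positive libraries, against 7221 and 8560 CPM in Lgr6-negative libraries, and all 7 were lower in Lgr6-positive cells. The 7 luminal epithelial markers summed to 4610 and 4606 CPM in Lgr6-positive, against 144 and 113 CPM in Lgr6-negative libraries, and 6 of them were higher. Over all genes tested, 4.57% were lower and 4.49% higher. Every difference in the list genes was measured between populations that also differed in these markers. In such bulk libraries, fewer cells of a type and less RNA per cell cannot be told apart.

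Promoter sequences of 29 of the 38 genes were in the RefSeq table used, on GRCm38.p6. Each window runs from 250 bases before the start site to 50 bases after it. They were searched for the ISRE core GAAANNGAAA on both strands and for the GAS core TTCNNNGAA, which reads the same on both strands. An ISRE core was in at least 1 window of 19 of the 29 genes (65.5%), against 3.97% of the 8862 tested genes with a window. A GAS core was in 11 of the 29 (37.9%), against 8.33% of those tested genes. Of all 32851 single windows, 3.44% held an ISRE core and 8.30% a GAS core. Shown here are 4 genes that were lower in Lgr6-positive cells (Oas1a, Oas3, Ifitm2 and Ifitm3), Isg15 as the classic target with 3 overlapping ISRE cores, and Gbp2 and Ifih1, which were not lower. Each is given 5′ to 3′ on the strand of the gene, and capitals mark ISRE or GAS cores, which may overlap.
Oas1a, chr5:120907476-120907775, minus strand: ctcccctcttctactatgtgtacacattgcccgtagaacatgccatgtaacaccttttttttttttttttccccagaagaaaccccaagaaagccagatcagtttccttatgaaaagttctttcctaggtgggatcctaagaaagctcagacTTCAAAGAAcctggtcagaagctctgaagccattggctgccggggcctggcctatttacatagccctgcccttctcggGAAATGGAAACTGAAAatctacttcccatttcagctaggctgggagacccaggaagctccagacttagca
Oas3, chr5:120777610-120777909, minus strand: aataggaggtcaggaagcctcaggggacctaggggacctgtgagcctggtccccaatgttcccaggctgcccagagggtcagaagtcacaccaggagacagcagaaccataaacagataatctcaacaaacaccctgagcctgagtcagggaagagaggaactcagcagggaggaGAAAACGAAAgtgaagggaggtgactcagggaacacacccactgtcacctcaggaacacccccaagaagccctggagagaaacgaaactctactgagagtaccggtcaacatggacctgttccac
Ifitm2, chr7:140955912-140956211, minus strand: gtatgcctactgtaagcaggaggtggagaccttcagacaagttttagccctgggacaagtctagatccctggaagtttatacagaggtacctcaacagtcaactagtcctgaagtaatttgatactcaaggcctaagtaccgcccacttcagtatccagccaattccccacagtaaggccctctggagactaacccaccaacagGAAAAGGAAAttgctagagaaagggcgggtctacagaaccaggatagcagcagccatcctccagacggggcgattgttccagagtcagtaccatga
Ifitm3, chr7:141010695-141010994, minus strand: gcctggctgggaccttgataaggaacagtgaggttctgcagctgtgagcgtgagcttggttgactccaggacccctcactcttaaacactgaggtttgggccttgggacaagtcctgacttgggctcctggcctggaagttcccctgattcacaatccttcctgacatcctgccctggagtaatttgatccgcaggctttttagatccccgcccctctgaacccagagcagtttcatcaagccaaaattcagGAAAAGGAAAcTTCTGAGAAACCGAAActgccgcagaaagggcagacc
Isg15, chr4:156200769-156201068, minus strand: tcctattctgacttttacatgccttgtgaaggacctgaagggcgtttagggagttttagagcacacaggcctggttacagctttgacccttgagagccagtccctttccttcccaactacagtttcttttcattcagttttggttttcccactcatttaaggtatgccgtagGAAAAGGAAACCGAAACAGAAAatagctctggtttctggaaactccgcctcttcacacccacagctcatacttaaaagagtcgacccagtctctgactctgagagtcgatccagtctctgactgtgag
Gbp2, chr3:142620413-142620712, plus strand: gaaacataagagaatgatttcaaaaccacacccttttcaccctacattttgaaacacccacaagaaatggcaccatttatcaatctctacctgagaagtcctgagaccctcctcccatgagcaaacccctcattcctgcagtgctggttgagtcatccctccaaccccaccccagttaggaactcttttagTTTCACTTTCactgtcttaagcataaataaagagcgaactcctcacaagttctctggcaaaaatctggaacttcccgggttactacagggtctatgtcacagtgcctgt
Ifih1, chr2:62646206-62646505, minus strand: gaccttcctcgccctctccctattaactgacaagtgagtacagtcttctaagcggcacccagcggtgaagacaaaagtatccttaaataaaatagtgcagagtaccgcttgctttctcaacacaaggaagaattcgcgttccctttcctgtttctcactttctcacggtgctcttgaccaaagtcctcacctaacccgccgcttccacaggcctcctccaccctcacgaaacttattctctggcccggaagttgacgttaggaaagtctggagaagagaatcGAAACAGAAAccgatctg

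The ISRE core was present in each of these 7 windows, including those of Gbp2 and Ifih1. In Oas1a the ISRE cores began at positions -20 and -14 from the start site, and in Oas3 at -75. In Ifitm2 a core began at -46, while in Ifitm3 both lay just downstream of the start, at positions 3 and 20. The core of Ifih1 also lay downstream, at position 33. Among tested genes of the list with a promoter window, 4 of the 4 that were lower and 14 of the 24 that did not pass had an ISRE core. Zbp1, the other list gene that was lower, had no window. A match is a description of letters in the window and was not tested as a binding site.

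Of the 38 genes, 37 had enough counts to be tested, and 5 of them were lower in Lgr6-positive cells at an adjusted p under 0.05. These were Oas1a, Oas3, Zbp1, Ifitm2 and Ifitm3. They make up 13.5% of the tested members, against 4.57% of all 11661 genes tested (533) that were lower. None of the 37 was higher in edgeR, against 4.49% of all genes (524). At an unadjusted p under 0.05, 11 members were lower and 1 was higher, against 10.8% and 14.3% of all genes. DESeq2 called 10 members lower and 1 higher, against 8.6% and 12.1% of all genes. In limma-voom 7 members were lower and 0 higher, against 6.24% and 6.47% of all genes. The median log2 fold change of the 37 genes, Lgr6-positive over Lgr6-negative, was -1.38, against 0.10 over all genes tested. In 22 of the 37 (59.5%) both Lgr6-positive libraries lay below both Lgr6-negative libraries, against 25.9% of all genes. In 1 of them, Ifih1, both lay above (2.70%), against 30.0% of all genes. For Bst2 and Irgm1 the separation was under 0.1 CPM. The number called lower depended on the settings, with 3 under library-size scaling and 10 in DESeq2 or without Lgr6-positive replicate 1. Library-size scaling raised the log2 fold changes of all genes by a median of 0.45, and its calls over all genes were 628 higher and 327 lower.

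**Figure D1:**
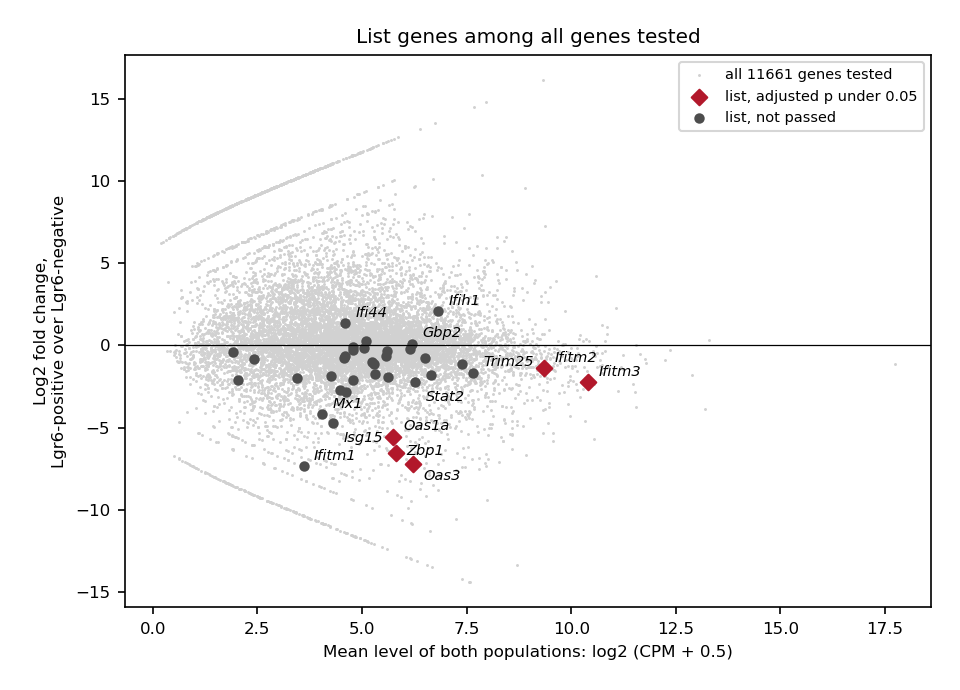
Log2 fold change, Lgr6-positive over Lgr6-negative, against the mean level of both populations for all genes tested (grey dots), with the list genes as diamonds (adjusted p under 0.05) or dark circles (not passed). The 5 called genes all lie below 0, between -1.38 and -7.18, and Ifih1 is the highest list gene at 2.10.

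The summed level of the 38 genes was 1799 and 2001 CPM in Lgr6-positive libraries, against 5157 and 5813 CPM in Lgr6-negative libraries, a 2.89-fold lower mean. Ifitm2 and Ifitm3 together supplied 44.0% and 44.1% of that sum in Lgr6-positive libraries and 53.0% and 62.3% in Lgr6-negative libraries. Without them the sum was 2.17-fold lower, at 1008 and 1119 CPM against 2425 and 2189 CPM. As a share of all counts in a library, the 38 genes made up 0.215% and 0.226% in Lgr6-positive libraries. In Lgr6-negative libraries they made up 0.478% and 0.456%. By role, the IFIT and OAS effectors with Isg20 were 6.21-fold lower in summed level and the interferon-gamma-inducible GTPases 1.40-fold lower. With the same scaling the sum over all genes of the table was 1.37-fold lower, so the GTPases lay near that background. The summed level of the pan-leukocyte markers was 18.5-fold lower over the same libraries. No test was made of any of these sums.

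**Figure D2:**
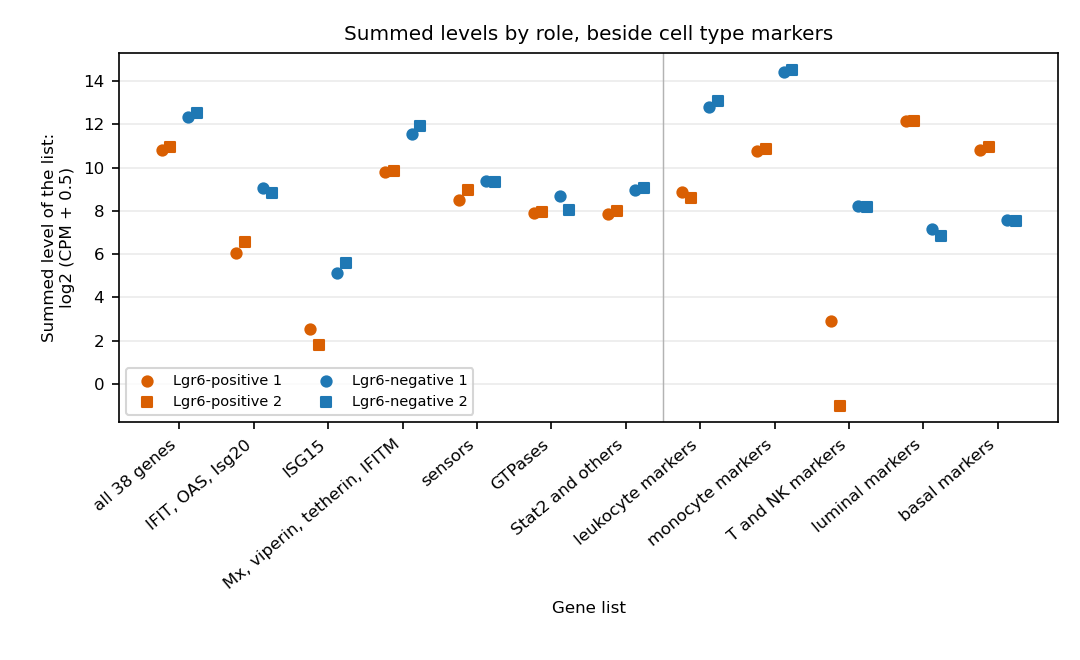
Summed level of each gene list in each library, as log2 (CPM + 0.5), for the list genes by role (left of the vertical line) and for cell type markers (right of it). Orange symbols are Lgr6-positive and blue symbols Lgr6-negative libraries. The GTPases lie closest together, while leukocyte, monocyte and T and natural killer markers are far lower, and luminal and basal markers far higher, in the Lgr6-positive libraries.

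The oligoadenylate synthetases make the second messenger that switches on the antiviral ribonuclease RNase L. Oas1a, on chromosome 5 from 120896256 to 120907521 of GRCm38, was at 0.613 and 3.80 CPM in Lgr6-positive libraries, against 103 and 106 CPM in Lgr6-negative libraries. It was lower in Lgr6-positive cells by a log2 fold change of -5.55 (SE 1.14, adjusted p = 0.0193), and the populations did not overlap. Of the 50-base words in Oas1a transcripts, 57.6% also occur in its neighbour Oas1g, so reads may have been split between them. Oas3, at bases 120753098 to 120777661 of the same chromosome, was at 1.96 and 0 CPM in Lgr6-positive libraries, against 117 and 175 CPM in Lgr6-negative libraries. It was lower by a log2 fold change of -7.18 (SE 1.44, adjusted p = 0.0171). Both calls held under each of the 11 alternative settings, with adjusted p-values up to 0.0366 and 0.0359.

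Oas2, which lies between bases 120730333 and 120749853 beside Oas3, behaved unevenly between replicates. It was at 0 and 40.4 CPM in Lgr6-positive libraries, against 114 and 41.2 CPM in Lgr6-negative libraries, so replicate 2 of each population had nearly the same level. The log2 fold change was -1.94 (SE 1.78, adjusted p = 0.591). It passed only without Lgr6-positive replicate 2, within a range of adjusted p from 3.88e-07 to 0.800. The OAS-like genes Oasl1 and Oasl2 had overlapping populations. Oasl2, whose protein assists RNA sensing, was at 32.9 and 40.8 CPM in Lgr6-positive, against 92.4 and 23.3 CPM in Lgr6-negative libraries. Oasl1, a translational repressor of Irf7 in mice, was at 6.87 and 0 CPM, against 5.46 and 6.93 CPM in Lgr6-negative libraries.

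The IFIT proteins bind foreign RNA at its cap or end and block its translation. Ifit2 was at 7.48 and 4.18 CPM in Lgr6-positive libraries, against 53.7 and 22.2 CPM in Lgr6-negative libraries (log2 fold change -2.70, SE 1.26, adjusted p = 0.227). Ifit1 was at 3.56 and 4.94 CPM in Lgr6-positive, against 29.0 and 4.44 CPM in Lgr6-negative libraries, so the populations overlapped. Ifit3 had 4 and 0 counts in Lgr6-positive libraries, against 9 and 80 counts in Lgr6-negative libraries. Only Lgr6-negative replicate 2 reached the filter's minimum count, so Ifit3 was not tested. Its transcripts share 51.2% of their 50-base words with Ifit3b, which makes its low count uncertain. Isg20, an RNA exonuclease, was at 11.8 and 0 CPM in Lgr6-positive, against 19.97 and 64.2 CPM in Lgr6-negative libraries. In all, 2 of the 8 tested genes of this role (25.0%) were lower, 6 did not pass, and all 8 had negative log2 fold changes. Of all genes tested, 4.57% were lower and 47.7% had negative log2 fold changes. The signs of Oasl1 and Oasl2 changed when 1 library was left out.

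Isg15, a ubiquitin-like protein attached to other proteins during antiviral responses, was at 2.33 and 0.507 CPM in Lgr6-positive libraries. It was at 29.8 and 45.2 CPM in Lgr6-negative libraries, so the populations were well apart. The log2 fold change of -4.70 (SE 1.50) missed the threshold with an adjusted p of 0.0880. It passed in DESeq2 and without Lgr6-positive replicate 1, within a range of adjusted p from 0.00135 to 0.294. Usp18, the protease that removes Isg15 and restrains interferon receptor signalling, was low throughout. It was at 3.07 and 2.53 CPM in Lgr6-positive, against 4.84 and 2.67 CPM in Lgr6-negative libraries, with overlapping populations (adjusted p = 0.934).

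**Figure D3:**
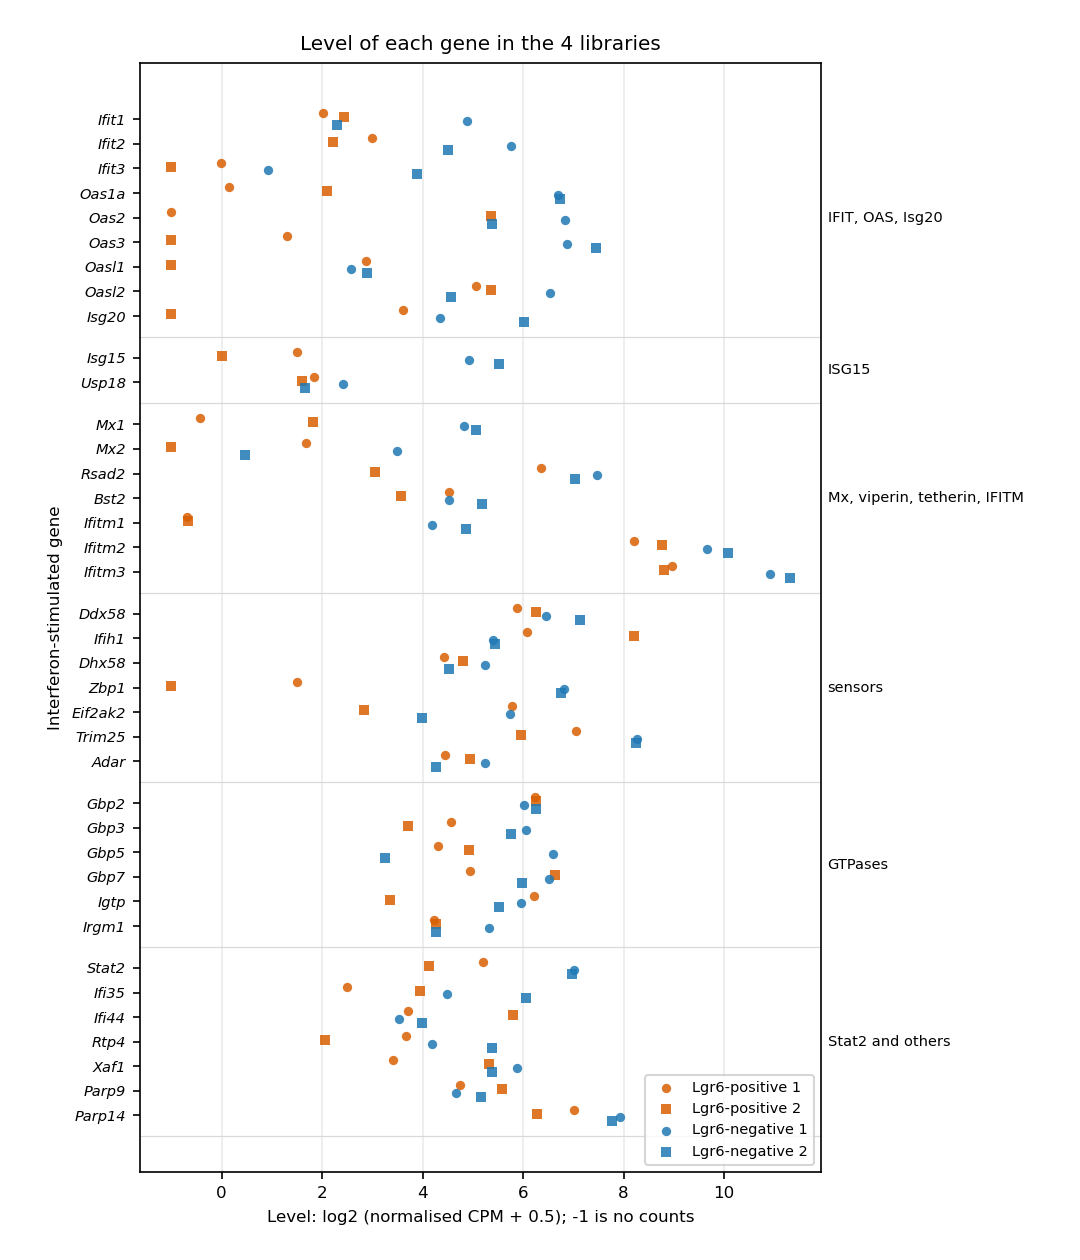
Level of each of the 38 genes in each library as log2 (normalised CPM + 0.5), grouped by role, with Lgr6-positive libraries in orange and Lgr6-negative libraries in blue, and replicates as circles (1) and squares (2). Blue symbols lie to the right of both orange symbols for Oas1a, Oas3, Zbp1, Ifitm2 and Ifitm3, while symbols at -1 mark libraries without counts.

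The interferon-induced transmembrane proteins of the Ifitm family block the fusion of enveloped viruses with cell membranes. Ifitm3, on chromosome 7 from 141009586 to 141010770, had the highest level of the list per exonic length in both populations. It was at 498 and 446 CPM in Lgr6-positive libraries, against 1923 and 2538 CPM in Lgr6-negative libraries (472 ± 37.2 against 2230.4 ± 435 CPM, SD, n = 2 each). It was lower by a log2 fold change of -2.24 (SE 0.28, adjusted p = 0.00215), and this call held under all 11 alternatives. Ifitm2, from 140954837 to 140955987, was at 293 and 437 CPM in Lgr6-positive, against 808 and 1086 CPM in Lgr6-negative libraries. It was lower with a log2 fold change of -1.38 (SE 0.35, adjusted p = 0.0423). It did not pass without Lgr6-negative replicate 2 (0.118), with DESeq2's size factors (0.0521) and under library-size scaling (0.121), in a range from 5.78e-04. Exons of the annotated gene Gm45717 and others cover 40.9% of the exonic bases of Ifitm2, so some of its counts may belong elsewhere.

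Ifitm1, the third family member, was counted once in each Lgr6-positive library, against 114 and 161 counts in Lgr6-negative libraries. The ratio of Lgr6-negative over Lgr6-positive was 183, with a 95% counting interval from 50.3 to 1521 that covers counting error only. Its adjusted p was 0.0529, and it passed under 5 of 11 alternatives in a range from 1.64e-04 to 0.216. The 3 genes lie within a stretch of chromosome 7 that begins with Ifitm2 and ends with Ifitm3. Per kilobase of annotated exon, Ifitm3 and Ifitm2 had the highest levels of the list in both populations, at 696 and 557 CPM per kb in Lgr6-positive and 3290 and 1446 CPM per kb in Lgr6-negative cells. The third was Gbp2 in Lgr6-positive cells, at 30.1 CPM per kb, and Oas1a in Lgr6-negative cells, at 55.3 CPM per kb.

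The other restriction factors did not pass the test. Mx1, a dynamin-like GTPase that blocks influenza virus in mice, was at 0.245 and 3.04 CPM in Lgr6-positive libraries, against 27.8 and 33.1 CPM in Lgr6-negative libraries. The log2 fold change of -4.20 had an SE of 1.70 and an adjusted p of 0.161, and it passed in DESeq2 and without Lgr6-positive replicate 2, in a range from 0.0241 to 0.364. Rsad2, which encodes the antiviral enzyme viperin, was at 81.1 and 7.86 CPM in Lgr6-positive, against 178 and 130 CPM in Lgr6-negative libraries. It passed only without Lgr6-positive replicate 1 (adjusted p = 0.298 with all libraries, 4.94e-04 to 0.481 over the alternatives). Bst2, the tetherin that holds budding virus on the cell, was at 22.6 and 11.4 CPM in Lgr6-positive, against 22.6 and 35.7 CPM in Lgr6-negative libraries. Mx2 was at 2.70 and 0 CPM, against 10.8 and 0.889 CPM in Lgr6-negative libraries, with overlapping populations. Of 7 restriction factors tested, 2 were lower (28.6%, against 4.57% of all genes tested) and 5 did not pass.

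Of the 7 nucleic acid sensors, 6 (85.7%) had negative log2 fold changes, against 47.7% of all genes tested. Only Ifih1 had a positive one. Zbp1, a sensor of Z-form nucleic acids that can start necroptosis, lies on chromosome 2 from 173206612 to 173218923. It was at 2.33 and 0 CPM in Lgr6-positive libraries, against 112 and 107 CPM in Lgr6-negative libraries. It was lower by a log2 fold change of -6.53 (SE 1.55, adjusted p = 0.0336). Of the 11 alternatives only library-size scaling lost this call, at 0.0604, in a range from 5.72e-07.

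Ifih1, which encodes the double-stranded RNA sensor MDA5, was the only member with both Lgr6-positive libraries above both Lgr6-negative libraries. It lies on chromosome 2 from 62595798 to 62646255. It was at 67.4 and 296 CPM in Lgr6-positive libraries, against 42.0 and 42.7 CPM in Lgr6-negative libraries. The log2 fold change of 2.10 (SE 0.75) did not pass, at an adjusted p of 0.117. Much of its size came from Lgr6-positive replicate 2, without which it was 0.65 (adjusted p = 0.806). It passed without Lgr6-positive replicate 1, without a filter and in DESeq2, in a range from 0.00107. Per kilobase of exon, Ifih1 ranked 4 of 38 in Lgr6-positive cells and 31 of 38 in Lgr6-negative cells.

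The related RNA helicase genes did not pass. Ddx58, which encodes the sensor RIG-I, was at 58.7 and 75.5 CPM in Lgr6-positive, against 87.2 and 139 CPM in Lgr6-negative libraries (log2 fold change -0.75, adjusted p = 0.529). Dhx58, encoding their regulator LGP2, was at 21.0 and 27.4 CPM, against 37.1 and 22.4 CPM in Lgr6-negative libraries. Trim25, a ubiquitin ligase that activates RIG-I, was at 132 and 61.3 CPM in Lgr6-positive, against 306 and 304 CPM in Lgr6-negative libraries. Its log2 fold change was -1.66 (SE 0.51, adjusted p = 0.0776), and it passed under 5 of 11 alternatives, from 0.00336 to 0.209. Eif2ak2, the RNA-activated kinase PKR, varied more within than between populations, at 54.6 and 6.59 CPM against 53.0 and 15.5 CPM in Lgr6-negative libraries. Adar, the RNA-editing enzyme, was at 21.2 and 30.4 CPM, against 37.3 and 18.8 CPM in Lgr6-negative libraries. Of 7 sensors tested, 1 was lower (14.3%, against 4.57% of all genes tested) and 6 did not pass.

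**Figure D4:**
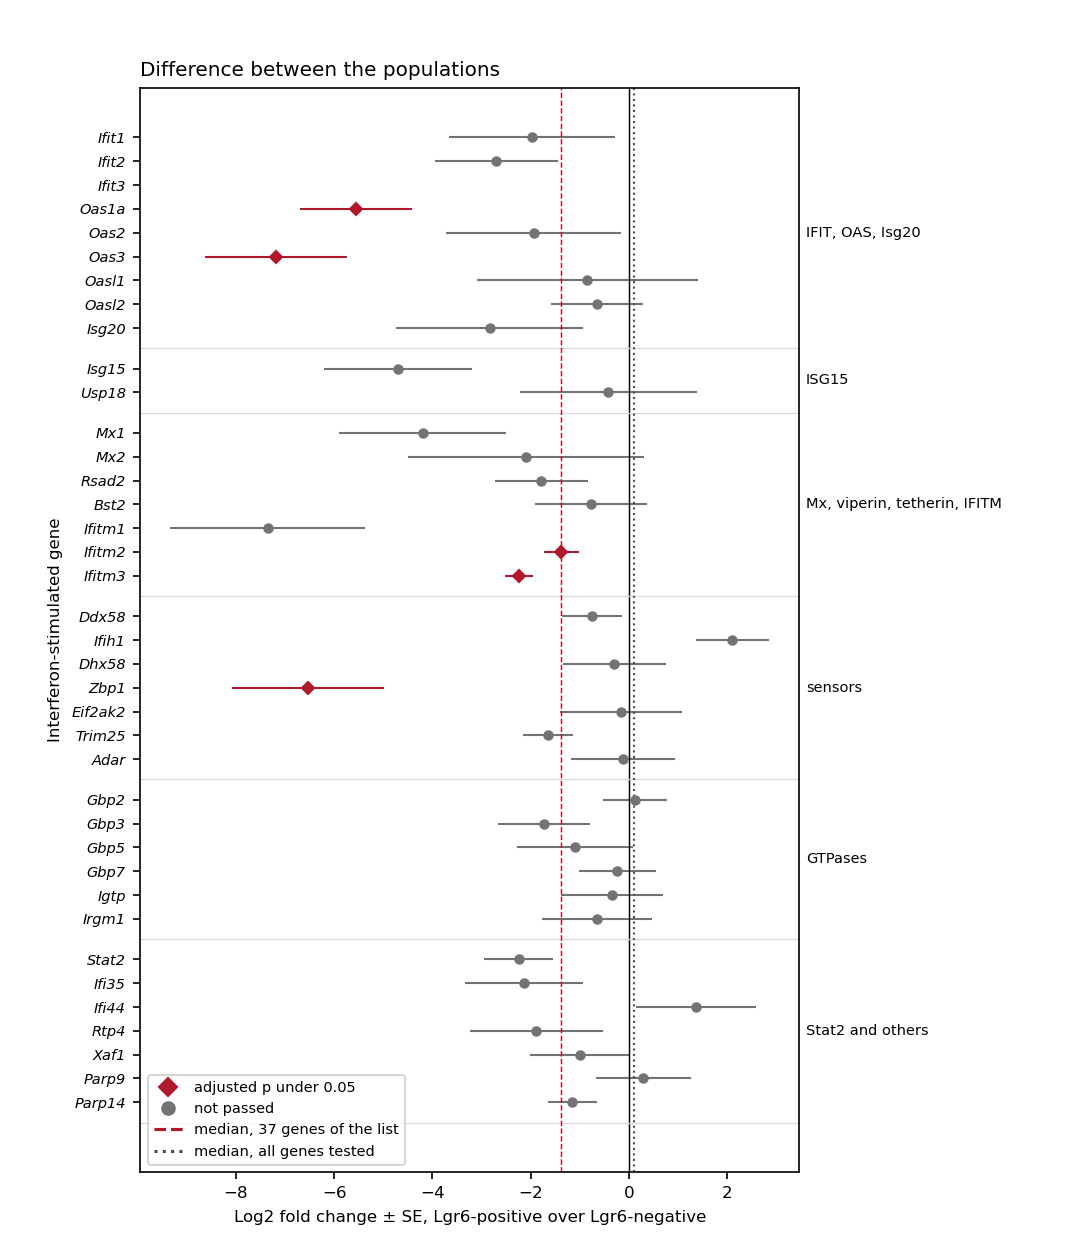
Log2 fold change of each tested gene, Lgr6-positive over Lgr6-negative, with its standard error, grouped by role (Ifit3 was not tested). Red diamonds have an adjusted p under 0.05. The dashed line is the median of the 37 tested genes at -1.38, and the dotted line that of all genes tested at 0.10.

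None of the 6 GTPases that interferon gamma typically induces passed the test, and none had an unadjusted p under 0.05. DESeq2 and limma-voom called none of them either. Of all genes tested, edgeR called 4.57% lower and 4.49% higher, or 10.8% and 14.3% at that unadjusted p. For only 6 genes, an absence of calls is near these shares and does not set the GTPases apart. Their log2 fold changes ran from -1.74 to 0.12, with a median of -0.50. Gbp2, a guanylate-binding protein that attacks the vacuoles of intracellular pathogens, was at 75.3 and 76.3 CPM in Lgr6-positive, against 63.97 and 75.7 CPM in Lgr6-negative libraries. The log2 fold change of 0.12 had an SE of 0.65, which leaves room for a difference in either direction. Gbp3 was at 23.3 and 12.7 CPM in Lgr6-positive, against 66.2 and 53.9 CPM in Lgr6-negative libraries, with no overlap (adjusted p = 0.307). Gbp5, which assists inflammasome assembly, was at 19.3 and 29.7 CPM, against 96.1 and 9.07 CPM in Lgr6-negative libraries. Gbp7 was at 30.3 and 99.6 CPM in Lgr6-positive, against 90.6 and 62.4 CPM in Lgr6-negative libraries.

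Both immunity-related GTPases of the list, which guard vacuole membranes, were also within the replicate spread. Igtp was at 74.3 and 9.76 CPM in Lgr6-positive, against 61.9 and 45.3 CPM in Lgr6-negative libraries. Irgm1 was at 18.1 and 18.8 CPM, against 39.3 and 18.8 CPM in Lgr6-negative libraries. Each of the 6 GTPases had an ISRE core in a promoter window, and 3 of them also had a GAS core. In the IFIT, OAS and Isg20 group, 8 genes had a promoter window, and 4 of these held an ISRE core. Those with a window include Ifit3, which was not tested, but not Oas2, which was.

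The remaining 7 genes held the signalling factor Stat2 and proteins of varied function, and none of them passed. At an unadjusted p under 0.05, 2 were lower and 0 higher, against 10.8% and 14.3% of all genes tested. DESeq2 called Stat2 alone and limma-voom none. Stat2, which carries the type I interferon signal to the nucleus, was at 36.3 and 17.0 CPM in Lgr6-positive, against 128 and 125 CPM in Lgr6-negative libraries. Its log2 fold change was -2.25 (SE 0.71, adjusted p = 0.0850), and it passed without Lgr6-positive replicate 1, in DESeq2 and without a filter, in a range from 0.0126 to 0.198. Parp14, an ADP-ribosyltransferase, was at 129 and 77.2 CPM in Lgr6-positive, against 243 and 217 CPM in Lgr6-negative libraries (log2 fold change -1.15, adjusted p = 0.184). Ifi35 was at 5.15 and 14.95 CPM, against 21.999 and 66.1 CPM in Lgr6-negative libraries, and Rtp4 was at 12.3 and 3.67 CPM, against 17.6 and 41.4 CPM. Xaf1, an antagonist of the apoptosis inhibitor XIAP, was at 10.2 and 39.4 CPM in Lgr6-positive, against 58.4 and 41.2 CPM in Lgr6-negative libraries.

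A pair of these genes had positive log2 fold changes. Ifi44 was at 12.5 and 55.5 CPM in Lgr6-positive, against 11.1 and 15.5 CPM in Lgr6-negative libraries (log2 fold change 1.36, SE 1.22), or -0.11 without Lgr6-positive replicate 2. Parp9 was at 26.4 and 47.4 CPM, against 25.0 and 35.4 CPM in Lgr6-negative libraries. With Ifih1 and Gbp2, these were the 4 tested members with a positive log2 fold change, against 33 with a negative one. Negative values made up 89.2% of the tested members, against 47.7% of all genes tested. Of the 33 members with negative values, 5 passed, against 533 of the 5560 genes tested with negative values.

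Replicates of the Lgr6-positive population differed more than those of the Lgr6-negative population for these genes. The median absolute log2 ratio between replicates, with 0.5 CPM added, was 1.10 over the 37 genes in Lgr6-positive libraries and 0.58 in Lgr6-negative libraries. Over all genes tested it was 1.02 and 0.86. Counts were 0 in 1 of the 2 Lgr6-positive libraries for 6 of the 37 genes (16.2%), against 7.50% of all genes tested. These were Oas2, with no counts in replicate 1, and Oas3, Oasl1, Isg20, Mx2 and Zbp1, with none in replicate 2. No member was at 0 in a Lgr6-negative library, against 9.10% of all genes at 0 in exactly 1 of them. A count of 0 allows up to 3 counts, which is 0.368 and 0.380 CPM in replicates 1 and 2 of the Lgr6-positive population. Leaving out the library that held the counts moved fitted values strongly, since a fold against 0 counts depends on the prior count and is no bound.

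**Figure D5:**
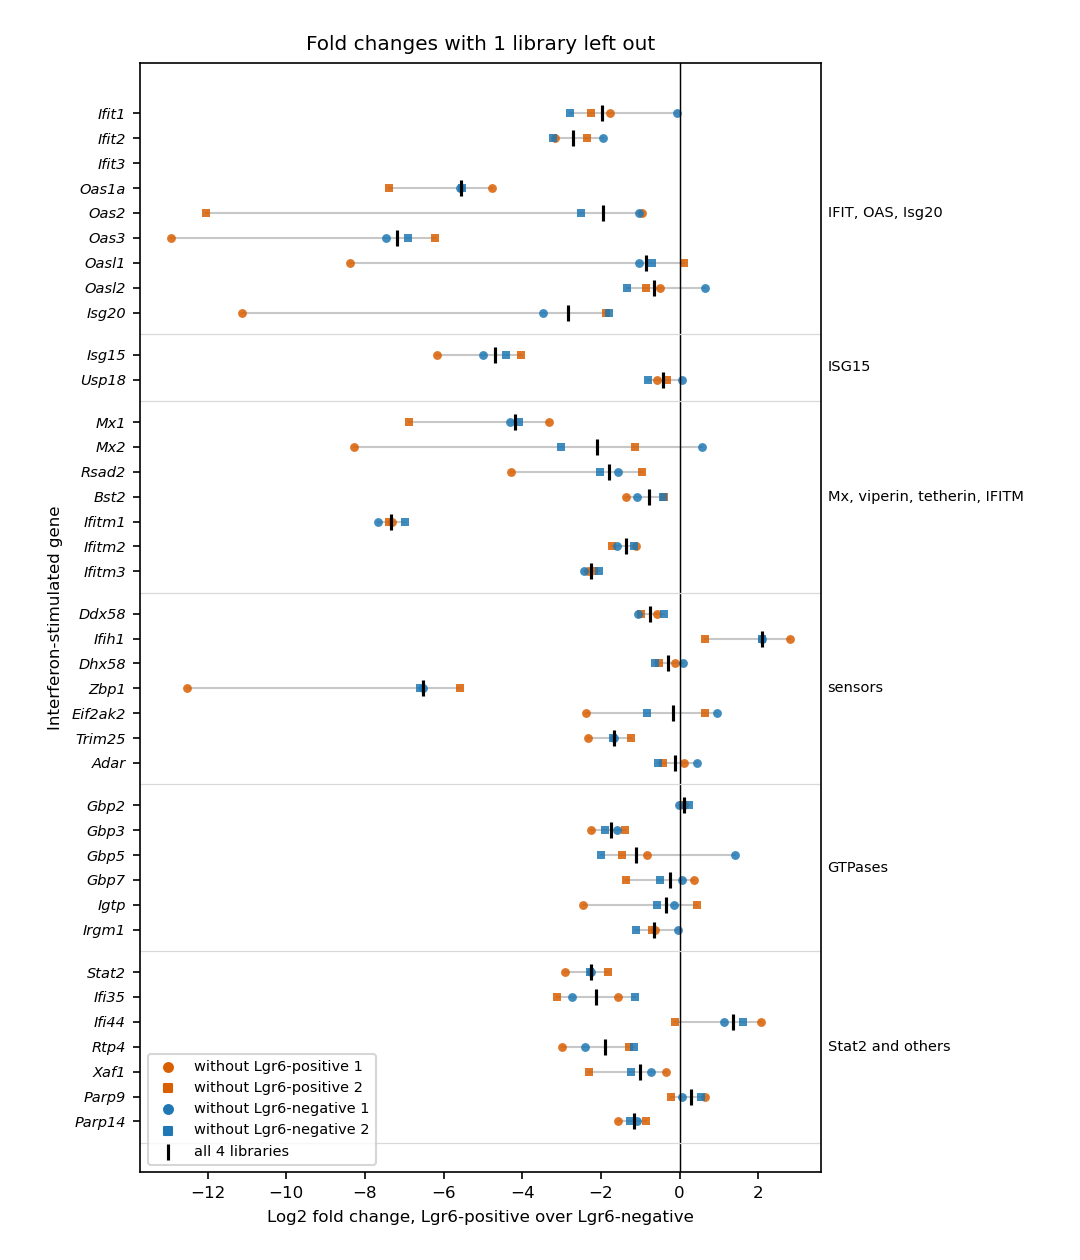
Log2 fold change of each tested gene, Lgr6-positive over Lgr6-negative, after leaving out 1 library (coloured symbols), with the value from all 4 libraries as a black tick. Ifitm2, Ifitm3 and Ifitm1 move little, while Oas2, Isg20, Oasl1, Mx2, Zbp1 and Oas3 spread widely because leaving out 1 Lgr6-positive library leaves none of their counts in that population.

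Of 43 further genes of the interferon pathway, from ligands to inhibitors, 26 were tested. In edgeR 4 of them (15.4%) were lower in Lgr6-positive cells and 0 higher, against 4.57% and 4.49% of all genes tested. At an unadjusted p under 0.05, 8 were lower and 0 higher, against 10.8% and 14.3% of all genes. DESeq2 called 8 lower and 0 higher, against 8.6% and 12.1% of all genes, and limma-voom 5 lower and 0 higher, against 6.24% and 6.47%. The number lower was 2 under library-size scaling and 9 without Lgr6-positive replicate 1. Their median log2 fold change was -1.49, against 0.10 over all genes tested.

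Interferon ligands were detected rarely. All 17 ligand genes had 0 counts in both Lgr6-positive libraries, and 13 had 0 counts in all 4 libraries. Of all 24442 genes, 9787 had 0 counts in both Lgr6-positive libraries and 8545 in all 4 libraries. Ifng, the gene of interferon gamma, made by T and natural killer cells, had 0 counts in Lgr6-positive libraries, against 29 and 65 in the Lgr6-negative ones (adjusted p = 0.0945, in a range from 0.0248 to 0.509). The T and natural killer markers Nkg7, Ncr1 and Klrb1c also had 0 counts in both Lgr6-positive libraries and were lower there, with Nkg7 at 166 and 95.5 CPM in Lgr6-negative libraries. Of 5 markers of plasmacytoid dendritic cells, strong producers of type I interferon, 4 had 0 counts in both Lgr6-positive libraries. Klk1 and Cox6a2 had no counts in any library, and Siglech had 5 counts, all in Lgr6-negative replicate 2. Ccr9 had 50 and 3 counts in Lgr6-negative libraries. The fifth, Ly6d, which mammary epithelium can also express, had 1298 and 1145 counts in Lgr6-positive libraries, against 278 and 109 counts in Lgr6-negative libraries (adjusted p = 0.0689).

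Among receptors, Ifngr1, the ligand-binding chain for interferon gamma, was lower in Lgr6-positive cells. It was at 58.1 and 50.8 CPM in Lgr6-positive, against 348 and 406 CPM in Lgr6-negative libraries (log2 fold change -2.79, SE 0.45, adjusted p = 0.00675). Its partner Ifngr2 was at 56.0 and 21.5 CPM, against 145 and 235 CPM in Lgr6-negative libraries, and missed the threshold (adjusted p = 0.0667). The type I receptor genes did not pass, with Ifnar1 at 41.6 and 27.4 CPM in Lgr6-positive, against 128 and 75.2 CPM in Lgr6-negative libraries. Ifnar2 was at 47.9 and 104 CPM, against 98.3 and 128 CPM in Lgr6-negative libraries. Ifnlr1, the receptor chain for the epithelial type III interferons, had 242 and 4 counts in Lgr6-positive, against 5 and 0 counts in Lgr6-negative libraries, and was below the filter. Il10rb, the remaining receptor gene, was at 10.4 and 1.77 CPM in Lgr6-positive, against 17.5 and 120 CPM in Lgr6-negative libraries. It did not pass (log2 fold change -3.49, SE 1.35, adjusted p = 0.143).

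Among signal transducers, Irf9, the DNA-binding partner of Stat2, was at 47.0 and 116 CPM in Lgr6-positive, against 60.4 and 68.1 CPM in Lgr6-negative libraries (adjusted p = 0.843). The kinase gene Jak1 was at 207 and 283 CPM, against 422 and 335 CPM in Lgr6-negative libraries, and Tyk2 at 34.0 and 37.5 CPM, against 32.1 and 19.0 CPM.

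Irf7, the factor that amplifies type I interferon production and is itself interferon-induced, was at 5.27 and 2.41 CPM in Lgr6-positive libraries. It was at 155 and 44.8 CPM in Lgr6-negative libraries, for a log2 fold change of -4.70 (SE 1.07, adjusted p = 0.0289). It did not pass under library-size scaling (0.0560), in limma-voom (0.104) and without Lgr6-negative replicate 1 (0.276), in a range from 1.36e-05. The kinases that activate it, Tbk1 and Ikbke, did not pass, with adjusted p-values of 0.237 and 0.121. Ptpn6, the blood-cell phosphatase SHP-1 that limits JAK signalling, was at 6.62 and 13.7 CPM in Lgr6-positive, against 175 and 191 CPM in Lgr6-negative libraries. It was lower by a log2 fold change of -4.17 (SE 0.70, adjusted p = 0.00816). Socs3, an inhibitor of cytokine signalling, was at 260 and 234 CPM, against 127 and 151 CPM in Lgr6-negative libraries, without overlap (log2 fold change 0.83, SE 0.44, adjusted p = 0.294).

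Cell type markers also differed between the populations in which the list genes were compared. The 9 monocyte and macrophage markers summed to 1750 and 1840 CPM in Lgr6-positive, against 22235 and 23692 CPM in Lgr6-negative libraries, and 8 of them were lower. Of 5 T and natural killer markers tested, 3 were lower, with sums of 7.11 and 0 CPM in Lgr6-positive, against 300.03 and 288 CPM in Lgr6-negative libraries. The 6 basal epithelial markers summed to 1804 and 1995 CPM in Lgr6-positive, against 188 and 186 CPM in Lgr6-negative libraries, with 3 higher. All 5 endothelial markers and 2 of 5 fibroblast markers were higher as well. Of 4 neutrophil markers tested, 3 were lower. The other, Retnlg, had 79 and 149 counts in Lgr6-positive libraries, against 0 in both Lgr6-negative libraries, and did not pass. None of the 4 B cell and 3 conventional dendritic cell markers tested passed. Of all genes tested, 4.57% were lower and 4.49% higher. The part of these cell types in the levels of interferon-stimulated genes was not tested.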

How the data were processed

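RNA was sequenced from 2 Lgr6-positive and 2 Lgr6-negative libraries of sorted mouse mammary cells. The deposited values are RSEM expected counts of 24442 genes, which the authors did not scale for depth. Tools and build, per the submitters' processing notes, were STAR 2.4.2a, RSEM 1.2.22 and mm10, with no annotation or strand setting stated. Between 3.36% and 4.86% of genes in a library had fractional values, and counts were rounded to whole numbers. Without strand, reads of overlapping genes on opposite strands cannot be told apart.

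Groups and replicate numbers came from the labels. The list of 38 genes, the pathway and marker lists and all tests were chosen with earlier results of these data known. Text names all 38 genes, pathway genes and markers beside a result. Trac is not analysed here, and 1 pathway gene counted among those lower is not reported by name. Replicate libraries differed beyond counting noise (chi-square per degree of freedom 88.3 between Lgr6-positive and 73.0 between Lgr6-negative libraries).

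Across all genes, edgeR 4.0.16 in R 4.3.3 was run with TMM factors of 1.21 and 1.13 (Lgr6-positive) and 0.929 and 0.787 (Lgr6-negative). filterByExpr (minimum count 10, minimum total 15) kept 11661 genes, and its quasi-likelihood test (glmQLFit, glmQLFTest) of population alone gave p-values adjusted by Benjamini-Hochberg over all of them, with a threshold of 0.05. Positive log2 fold changes mean a higher level in Lgr6-positive cells. SE is the size of the log2 fold change divided by the root of F. The steps were also run on counts simulated with the dispersions fitted to these data, with as many rises as falls. Such counts cannot show whether the calls made here are right. Intervals and floors (3 counts) cover counting error only, since amplified reads are not independent molecules.

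Alternatives were library-size scaling, DESeq2 size factors, no filter, a filter of 50 counts in 2 libraries, DESeq2 1.42.0, limma-voom (limma 3.58.1), a replicate block and leaving out each library. Positions, exonic lengths and shared 50-base words came from GENCODE M21 (GRCm38, the same assembly as mm10), where 38 of 38 symbols matched, and promoters from RefSeq. Python 3.11.15, pandas 2.3.3 and scipy 1.17.1 were used for the rest.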

Additional observations from a re-analysis of the deposited data

How the results depend on the processing

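With 2 libraries per population, only large differences pass, and values that did not pass may still differ. Over 57 genes, 550 values under alternatives kept their direction and side of the threshold, 41 newly passed, 9 no longer passed and 22 changed sign. Without a filter, 967 genes were higher and 854 lower, with 1 member higher and 8 lower. DESeq2 gave 1412 and 1003, with 1 member higher, 10 lower and 8 pathway genes lower. Library-size scaling gave 327 genes, 3 members and 2 pathway genes lower and a member median of -0.92. It made Dhx58 (0.11), Eif2ak2 (0.25), Adar (0.28), Gbp7 (0.17) and Igtp (0.11) positive. Leaving out each library gave 678 to 956 genes higher and 540 to 1030 lower, 0 to 1 members higher and 4 to 10 lower, 3 to 9 pathway genes lower and a member median of -2.00 to -1.07. Log2 fold changes whose sign depended on 1 library ran from -8.37 to 0.12 for Oasl1, -1.34 to 0.65 for Oasl2, -0.80 to 0.055 for Usp18, -8.28 to 0.57 for Mx2, -0.63 to 0.10 for Dhx58, -2.38 to 0.96 for Eif2ak2, -0.55 to 0.44 for Adar, -0.013 to 0.23 for Gbp2, -1.99 to 1.42 for Gbp5, -1.36 to 0.38 for Gbp7, -2.46 to 0.44 for Igtp, -0.11 to 2.06 for Ifi44, -0.22 to 0.65 for Parp9 and -0.48 to 0.85 for Irf9. None of these genes was called with all libraries, and the cause was not tested.

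Deviations of same-numbered libraries from their population means had a correlation of -0.02 over 11661 genes. With 2 libraries per population that differ beyond counting noise, this value cannot decide whether the numbers pair the samples. The labels do not state it either. With the replicate block, 678 genes were higher and 662 lower, and 6 members were lower, the 5 called without it and Trim25.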

Other observations

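Some relatives and neighbours of the list genes were measured too, chosen after their values were seen. Oas1g, the near copy of Oas1a, had 0 counts in both Lgr6-positive libraries, against 73 and 22 counts in Lgr6-negative libraries (adjusted p = 0.0972). Ifit3b, the near copy of Ifit3, had 11 and 0 counts in Lgr6-positive libraries, against 0 counts in both Lgr6-negative libraries. All its counts were in Lgr6-positive replicate 1, and Ifit3b had too few for the test. Dtx3l, the ubiquitin ligase partner of Parp9, which shares 9.40% of the exonic bases of Parp9, was at 95.9 and 47.4 CPM in Lgr6-positive, against 112 and 152 CPM in Lgr6-negative libraries (adjusted p = 0.447). Irgm2, whose transcripts hold 11.8% of the 50-base words of Igtp, was at 37.8 and 25.5 CPM in Lgr6-positive, against 18.6 and 27.7 CPM in Lgr6-negative libraries (adjusted p = 0.861).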
